A study of Mus musculus with 32 samples.

Results

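The endothelial genes described here were Erg, Sox17, Kdr, Flt1, Tek, Tie1, Cdh5, Pecam1, Emcn and Cldn5, listed for their known roles as transcription factors, receptors or junction and surface proteins of blood vessels and matched by the gene symbol of the array's annotation. All 10 were measured, among 13705 genes tested. Expression was measured on 32 Affymetrix arrays, 4 in each of 8 groups, from jaws of mouse embryos at embryonic day 13.5. The groups were mutant and control distal mandible, mutant and control proximal mandible, mutant and control distal maxilla, and mutant and control proximal maxilla. The strain in the labels is C57B6. Mutants lacked Alk5 (gene symbol Tgfbr1), a type I receptor for TGF-beta ligands, where the Wnt1-Cre transgene had been active. They came from matings of Wnt1cre;Alk5fl/+ with Alk5fl/fl mice, so every embryo of either genotype carried a floxed allele from the Alk5fl/fl parent. Mutants were recognised by their cleft palate and skull vault defect, and controls are given only as litter mates. Wnt1-Cre is active in the neural crest, which forms the mesenchyme of the jaws.

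Endothelial cells line the blood vessels and are mainly of mesodermal origin, whereas Wnt1-Cre marks derivatives of the neural crest. VEGF acts on them through the receptor kinase encoded by Kdr, while the product of Flt1 binds VEGF and limits it, and angiopoietins act through the kinase encoded by Tek, with that of Tie1 as its partner. ETS factors such as ERG and SOX factors such as SOX17 hold the endothelial state and its gene expression. Cdh5, Pecam1 and Cldn5 encode proteins of the contacts between endothelial cells, and Emcn encodes a sialomucin of their surface.

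Values are log2 expression as deposited, so a difference of 1 is a 2-fold change. The probe set with the highest mean stood for a gene, and all 16 probe sets of the 10 genes passed a filter on low signal. On the 10 tested probe sets 0 arrays lay under the level of that filter. Because the tissue was not sorted, fewer endothelial cells and less RNA per endothelial cell cannot be told apart. Each probe set has its own scale, so levels were compared between arrays and not between genes. The labels do not say whether arrays of different number came from different embryos. P-values therefore measure only the spread among the arrays, which may be technical in part.

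Correlations between arrays within groups were 0.926 to 0.997, and 0 pairs of arrays held identical values. Jaw identity matched the labels: Hand2, a lower jaw transcription factor gene, was higher in control mandible than in control maxilla by 4.99 at the distal and 3.47 at the proximal end. Tgfbr1 was not lower but higher in mutants, at 12.96 to 13.07 against 12.65 to 12.68 as group means at the distal ends, and 12.87 to 12.88 against 12.71 at the proximal ends. Every mutant array lay above every control array in distal mandible, distal maxilla and proximal maxilla. That pattern was found for 4.3%, 2.18% and 2.08% of all genes there. In proximal mandible the arrays of Tgfbr1 overlapped, and no test of Tgfbr1 is given here. The position of its probes relative to the deletion is not known here, which makes this no check of the labels. The arrays of number 1 stood apart in their Cre spike-in (13.77 to 14.02, against 12.56 to 13.35 on the others). Xist was high on mutant number 1 and control number 2, and was intermediate on the control maxilla arrays of number 3 (9.69 distal, 10.72 proximal), where Y-linked genes were also present. Genotypes thus differed in sex within numbers 1 and 2. Within a genotype, numbers that differ in sex must come from different embryos. For numbers of the same sex this is not known. In addition, array 1 of mutant distal maxilla had the narrowest spread of values (SD 2.37, against 2.50 to 2.56 on the others). Array 3 of control distal mandible had a 3' to 5' difference of Gapdh of 2.23, against -0.18 to 0.12 on the others. Most genotype differences of single genes that rest on these arrays are given with and without them. Values for sets of genes, and values set against such means, include them.

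Erg was the 1 gene of the 10 that passed the test in any comparison: it fell in the mutant distal maxilla, by 1.38 ± 0.32 on the log2 scale (SE, adjusted p = 0.0413, limma). Its mutant arrays were also all below the control arrays in the proximal mandible and the proximal maxilla, without passing the test. Kdr, Flt1, Tek, Tie1, Cdh5, Pecam1, Emcn, Cldn5 and Sox17 passed no test between genotypes. The plot of levels by array shows the 10 genes in the 8 groups.

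**Figure D1:**
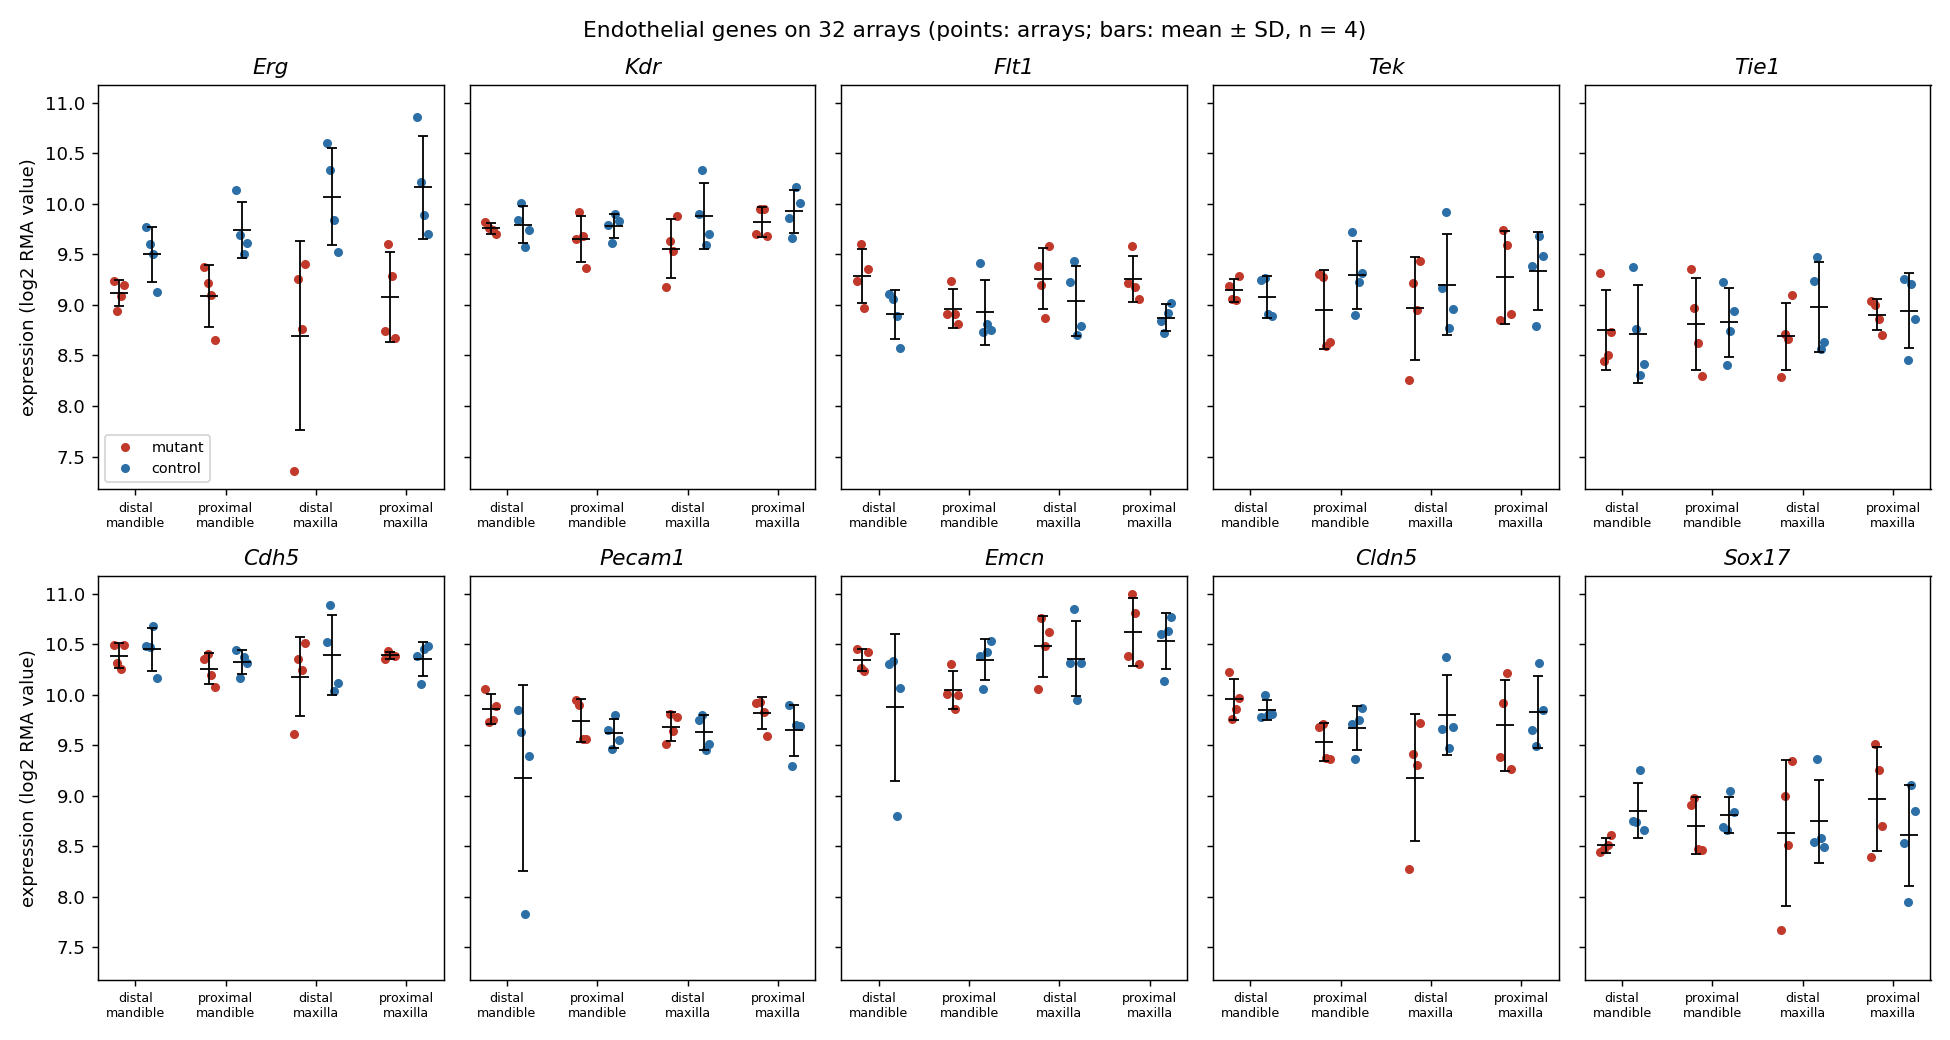
Expression of each endothelial gene (log2 value of the tested probe set) on every array, by region, with mutant arrays left of control arrays; points are arrays and bars are mean ± SD (n = 4). Erg is lower on all mutant than on all control arrays in 3 regions, while the other genes overlap in nearly every region.

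The 2 transcription factor genes come first. Erg encodes an ETS factor expressed throughout the endothelium, and in the mouse also in developing joint cartilage. RefSeq gives Erg 3 promoter windows, which are shown because Erg carries the genotype result. Those of Tek and Kdr are shown beside them because these genes followed the mean of the other endothelial genes most closely across arrays. Each window runs from 250 bases before to 50 bases after a transcript start on the strand of the gene (RefSeq, GRCm38.p6). Capitals mark GGAA, the core letters of ETS sites, or TTCC where the match is on the other strand. The first window, at chr16:95586544-95586843 (minus strand), held 1 match. The second, at chr16:95530316-95530615 (minus strand), held 4. The last, at chr16:95459299-95459598 (minus strand), held 2, of which 1 lay within the longer form CAGGAA. The window of Tek at chr4:94739039-94739338 (plus strand) held 2 matches, both within the longer form CAGGAA. That of Kdr at chr5:75978406-75978705 (minus strand) held 5, of which 1 lay within CCGGAA.
Erg first start: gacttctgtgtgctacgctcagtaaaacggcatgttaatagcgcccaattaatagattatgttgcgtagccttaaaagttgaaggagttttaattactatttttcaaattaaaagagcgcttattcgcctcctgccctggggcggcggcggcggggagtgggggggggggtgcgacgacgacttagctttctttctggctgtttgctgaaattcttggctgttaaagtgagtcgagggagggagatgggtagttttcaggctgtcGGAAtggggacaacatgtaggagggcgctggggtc
Erg second start: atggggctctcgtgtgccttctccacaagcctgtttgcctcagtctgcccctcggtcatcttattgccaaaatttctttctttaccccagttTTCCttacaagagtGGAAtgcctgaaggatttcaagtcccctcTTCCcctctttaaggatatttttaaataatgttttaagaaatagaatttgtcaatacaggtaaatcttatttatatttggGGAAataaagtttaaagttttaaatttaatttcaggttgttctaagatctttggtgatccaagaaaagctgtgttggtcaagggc
Erg last start: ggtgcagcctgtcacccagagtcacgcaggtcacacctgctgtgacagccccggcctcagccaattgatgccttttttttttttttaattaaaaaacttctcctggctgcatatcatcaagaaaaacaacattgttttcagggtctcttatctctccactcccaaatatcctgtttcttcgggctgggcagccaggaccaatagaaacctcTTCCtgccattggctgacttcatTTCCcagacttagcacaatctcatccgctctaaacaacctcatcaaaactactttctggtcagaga
Tek: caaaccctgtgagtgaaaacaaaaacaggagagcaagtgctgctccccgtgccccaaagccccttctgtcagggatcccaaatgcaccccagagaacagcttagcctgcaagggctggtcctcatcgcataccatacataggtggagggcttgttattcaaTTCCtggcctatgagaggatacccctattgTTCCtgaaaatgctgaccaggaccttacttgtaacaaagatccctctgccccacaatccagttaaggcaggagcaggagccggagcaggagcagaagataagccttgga
Kdr: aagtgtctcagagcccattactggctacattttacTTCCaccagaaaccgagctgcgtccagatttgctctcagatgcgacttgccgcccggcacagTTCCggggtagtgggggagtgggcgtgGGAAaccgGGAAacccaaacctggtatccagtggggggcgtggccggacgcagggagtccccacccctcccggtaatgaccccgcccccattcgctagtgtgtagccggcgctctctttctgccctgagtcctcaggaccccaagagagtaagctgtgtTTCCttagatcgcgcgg

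Windows were found for 7 of the 10 genes, and Cdh5, Pecam1 and Sox17 are named only. GGAA on either strand was present in 96% of 32851 RefSeq promoter windows of the same length, with a median of 3 matches. The longer forms, which contain GGAA and overlap it, were rarer: CAGGAA was found in 30.6% and CCGGAA in 14.9% of windows. AACAAT, a core of SOX sites, was found in 10.7% of all windows and had 1 match in the window of Tek, 1 in the last window of Erg, 1 in that of Emcn and 0 in the other windows of the listed genes. Flt1 held 4 matches to GGAA, Tie1 9, Emcn 6 and Cldn5 0. Of these, 1 in Tie1 and 2 in Emcn lay within CAGGAA.

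In distal maxilla, Erg read 7.36, 9.26, 8.76 and 9.41 on the mutant arrays, against 10.60, 10.33, 9.84 and 9.52 on the control arrays. The groups did not overlap, and mutant array 1, the array of narrow spread, lay far below the other mutant arrays. The difference of -1.38 (95% interval -2.04 to -0.71) corresponds to 0.385 of the control level. Erg was 1 of 10 endothelial genes called there, against 0.788% of all genes in either direction, 0.358% higher and 0.43% lower. The call rested on single arrays: without mutant array 1 the difference was -0.93 (adjusted p = 0.109), and without control array 1 it was -1.20 (adjusted p = 0.183). It was also lost without control array 3 (adjusted p = 0.0738) or mutant array 3 (adjusted p = 0.0718), and held without each of the other 4 arrays. Without number 1 in both genotypes Erg differed by -0.75 (adjusted p = 0.156).

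In proximal maxilla, Erg read 8.75, 9.60, 9.29 and 8.67 on mutant arrays, against 10.86, 10.21, 9.89 and 9.70 on control arrays. Again every mutant array lay below every control array, and the difference was -1.09 (95% interval -1.75 to -0.42, adjusted p = 0.314). In proximal mandible, Erg read 9.37, 9.22, 9.09 and 8.66 on mutant arrays, against 10.14, 9.69, 9.51 and 9.62 on control arrays. The groups did not overlap here either, with a difference of -0.65 (95% interval -1.32 to 0.01, adjusted p = 0.436). In distal mandible, Erg read 9.24, 8.94, 9.09 and 9.19 on mutant arrays, against 9.78, 9.60, 9.51 and 9.13 on control arrays. These groups overlapped through control array 4, and the difference was -0.39 (95% interval -1.05 to 0.28, adjusted p = 0.615).

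Groups in which all mutant arrays were lower were not rare over all genes: the share was 8.02% in distal mandible, 5.5% in proximal mandible, 3.47% in distal maxilla and 1.08% in proximal maxilla. In each region 1 of the 10 endothelial genes had this pattern, Sox17 in distal mandible and Erg in the other 3 regions. The share called in proximal maxilla was 0.0657% of all genes, in proximal mandible 1.26% and in distal mandible 1.91%. Those at unadjusted p under 0.05, before adjustment over all genes, were 2 of the 10 endothelial genes in distal mandible (16% of all genes), 0 in proximal mandible (11.9%), 3 in distal maxilla (12.9%) and 2 in proximal maxilla (4.9%).

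Ordered by level, Erg was highest in control proximal maxilla (10.17 ± 0.51, SD, n = 4), followed by control distal maxilla (10.07 ± 0.48), control proximal mandible (9.74 ± 0.28) and control distal mandible (9.50 ± 0.27). The 4 mutant groups followed, with distal mandible at 9.12 ± 0.13, proximal mandible at 9.09 ± 0.31, proximal maxilla at 9.08 ± 0.45 and distal maxilla at 8.70 ± 0.93. The step between mutant and control distal mandible exceeded the SD of each of its groups, though their arrays overlapped and the difference did not pass. Each of the other steps was smaller than the SD of at least 1 of its groups. The fall of Erg was larger in the maxilla than in the mandible in value at both ends. The test of that difference gave 0.99 ± 0.46 (SE) at the distal end, as the mandible effect minus the maxilla effect, and did not pass (adjusted p = 0.665).

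The second probe set of Erg, 1425370_a_at, was dimmer. In distal maxilla it read 7.49, 7.06, 6.77 and 6.79 on mutant arrays, against 8.21, 7.71, 7.88 and 7.50 on control arrays. The groups did not overlap, but mutant array 1 was here the highest of the mutant arrays and not the lowest. In proximal maxilla it read 6.94, 7.43, 7.18 and 6.62 on mutant arrays, against 8.55, 8.08, 7.68 and 7.51 on control arrays. In proximal mandible the values were 6.89, 7.19, 7.16 and 6.96 on mutant arrays, against 7.68, 7.58, 7.45 and 7.57 on control arrays. Neither pair of groups overlapped, as for the tested probe set, and distal mandible overlapped for both probe sets. Fitted as its own feature, 1425370_a_at differed by -0.80 in distal maxilla (adjusted p = 0.0921), -0.91 in proximal maxilla (adjusted p = 0.165), -0.52 in proximal mandible (adjusted p = 0.358) and -0.01 in distal mandible (adjusted p = 0.993). Within groups the 2 probe sets followed each other little: their deviations from group means correlated at 0.27 over 32 arrays. With the mean of both probe sets as the value of Erg, the difference in distal maxilla was -1.09 and passed (adjusted p = 0.0134).

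**Figure D2:**
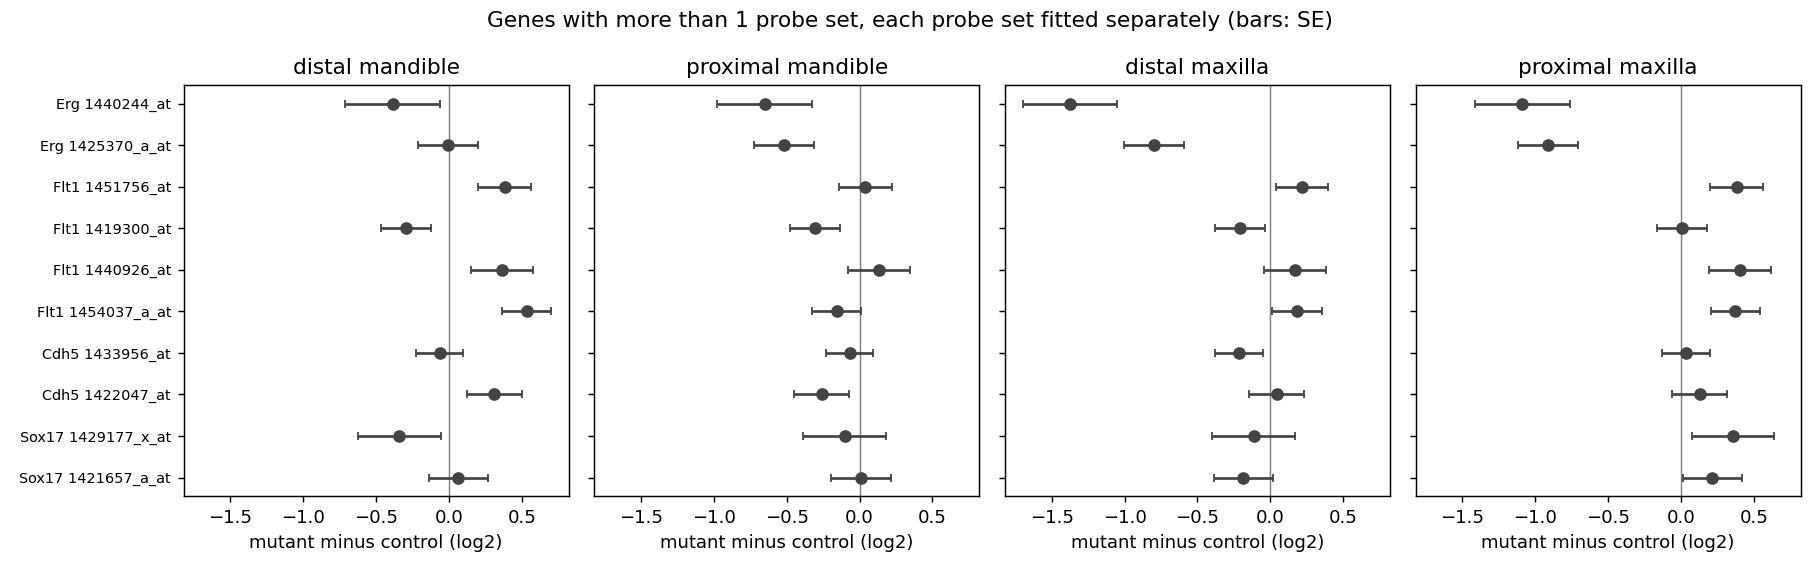
Mutant minus control difference (log2) of every probe set of the 4 genes with more than 1, in each region; points are the fitted differences and bars their SE. Both Erg probe sets lie below 0 in 3 regions, with 1425370_a_at near 0 in distal mandible. The 4 probe sets of Flt1 disagree in sign in every region but the proximal maxilla. Those of Sox17 disagree in the mandible, and those of Cdh5 at the distal ends.

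Averaged over the 4 regions of each number, Erg read 8.68, 9.26, 9.06 and 8.98 in mutants, against 10.34, 9.96, 9.69 and 9.49 in controls. All 4 mutant averages were below all 4 control averages, by -0.88 ± 0.19 (SE, 95% interval -1.31 to -0.45), and the adjusted p of 0.0715 did not pass. Of the 10 genes 0 were called on average (limma), against 1.37% of all genes, and 4 had an unadjusted p under 0.05, against 14% of all genes. Without number 1 in both genotypes the difference of Erg was -0.61 and passed (adjusted p = 0.0364), and it passed with number 1 as a covariate (-0.88, adjusted p = 0.0361). With a replicate block in the fit, the adjusted p of Erg was 0.0818.

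Sox17 encodes a SOX factor known in arterial endothelium. In distal mandible it read 8.44, 8.47, 8.51 and 8.61 on mutant arrays, against 8.75, 8.74, 9.25 and 8.66 on control arrays. The groups did not overlap, but the difference of -0.34 (95% interval -0.92 to 0.24) did not pass (adjusted p = 0.61). Control array 3, the array with the high Gapdh difference, was the highest, and without it the difference was -0.21 (adjusted p = 0.895). In the other regions the difference of Sox17 was -0.10 in proximal mandible, -0.11 in distal maxilla and 0.36 in proximal maxilla, with overlapping groups. The second probe set of Sox17, 1421657_a_at, did not share the distal mandible pattern. It read 7.77, 7.79, 7.81 and 7.94 on mutant arrays there, against 7.79, 8.05, 7.51 and 7.69 on control arrays. These groups overlapped, with a difference of 0.07 (adjusted p = 0.93). In the other regions 1421657_a_at differed by 0.01 in proximal mandible, -0.18 in distal maxilla and 0.22 in proximal maxilla. The deviations of the 2 probe sets from group means correlated at 0.81 over 32 arrays.

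Kdr encodes the main signalling receptor for VEGF. In distal maxilla it read 9.18, 9.63, 9.54 and 9.88 on mutant arrays, against 9.90, 10.33, 9.60 and 9.70 on control arrays. The groups overlapped, and the difference of -0.32 (95% interval -0.63 to -0.02) did not pass (adjusted p = 0.343). Without mutant array 1, the lowest, it was -0.20 (adjusted p = 0.649). Elsewhere Kdr differed by -0.04 in distal mandible, -0.13 in proximal mandible and -0.10 in proximal maxilla.

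Flt1 encodes a VEGF receptor that also occurs as a soluble form. In proximal maxilla its tested probe set read 9.22, 9.58, 9.17 and 9.06 on mutant arrays, against 8.84, 8.72, 8.92 and 9.02 on control arrays. Every mutant array was higher, a pattern of 2.08% of all genes in that region, and the difference of 0.38 (95% interval 0.01 to 0.75) did not pass (adjusted p = 0.994). In distal mandible Flt1 read 9.23, 9.60, 8.97 and 9.36 on mutant arrays, against 9.11, 9.06, 8.89 and 8.57 on control arrays. The groups overlapped, with a difference of 0.38 (adjusted p = 0.292). In proximal mandible and distal maxilla Flt1 differed by 0.04 and 0.22.

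The 4 probe sets of Flt1 gave different signs in every region but the proximal maxilla. Probe set 1419300_at differed by -0.30 in distal mandible, -0.30 in proximal mandible, -0.21 in distal maxilla and 0.01 in proximal maxilla. Probe set 1440926_at differed by 0.37, 0.14, 0.17 and 0.40 in the same regions, and 1454037_a_at by 0.53, -0.16, 0.18 and 0.37. None of these passed the test, and which Flt1 transcripts each probe set reads was not determined. Their deviations followed those of the tested probe set at r = 0.44 to 0.75 over 32 arrays.

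Tek encodes the angiopoietin receptor TIE2. In distal maxilla it read 8.26, 9.22, 8.95 and 9.44 on mutant arrays, against 9.17, 9.92, 8.77 and 8.96 on control arrays. The groups overlapped, and the difference of -0.24 (95% interval -0.78 to 0.30, adjusted p = 0.775) was -0.00 without mutant array 1. In proximal mandible Tek read 9.31, 9.28, 8.59 and 8.63 on mutant arrays, against 9.72, 8.90, 9.23 and 9.32 on control arrays. These groups overlapped as well, with a difference of -0.34 (adjusted p = 0.703). Tek differed by 0.06 in distal mandible and -0.06 in proximal maxilla.

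Tie1 encodes an orphan receptor that modulates TIE2. Its differences were 0.04 in distal mandible, -0.02 in proximal mandible, -0.29 in distal maxilla and -0.04 in proximal maxilla. All 4 pairs of groups overlapped, and array 1 was the highest in 6 of the 8 groups of Tie1, the exceptions being both distal maxilla groups. The largest of these differences had a 95% interval of -0.82 to 0.25 (adjusted p = 0.713).

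Cdh5 encodes VE-cadherin of endothelial adherens junctions. It varied little: the differences were -0.06 in distal mandible, -0.07 in proximal mandible, -0.21 in distal maxilla and 0.03 in proximal maxilla. In distal maxilla Cdh5 read 9.61, 10.35, 10.24 and 10.51 on mutant arrays, against 10.52, 10.89, 10.04 and 10.11 on control arrays. The low mutant array was again array 1, and without it the difference of Cdh5 was -0.02. The second probe set of Cdh5, 1422047_at, lay under the level of the filter on 25 of 32 arrays and was not read further.

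Pecam1 encodes CD31, an adhesion molecule at endothelial contacts that platelets and leukocytes also carry. In distal mandible it read 10.05, 9.73, 9.75 and 9.89 on mutant arrays, against 9.85, 9.63, 7.83 and 9.40 on control arrays. The groups overlapped, and control array 3 lay far below all others. The difference of 0.68 (95% interval 0.17 to 1.19) did not pass (adjusted p = 0.162), and was 0.23 without control array 3 (adjusted p = 0.543). In the other regions Pecam1 differed by 0.12 in proximal mandible, 0.06 in distal maxilla and 0.17 in proximal maxilla.

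Emcn encodes endomucin, known for venous and capillary endothelium. In distal mandible it read 10.46, 10.26, 10.24 and 10.43 on mutant arrays, against 10.30, 10.34, 8.80 and 10.06 on control arrays. Control array 3 was again the low one, and the difference of 0.47 (adjusted p = 0.35) was 0.11 without it. Emcn differed by -0.31 in proximal mandible, 0.12 in distal maxilla and 0.09 in proximal maxilla, with overlapping groups.

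Cldn5 encodes claudin-5, the main tight junction claudin of endothelium. In distal maxilla it read 8.28, 9.41, 9.31 and 9.72 on mutant arrays, against 9.66, 10.38, 9.47 and 9.68 on control arrays. The groups overlapped, and array 1 was the lowest mutant array. The difference of -0.62 (95% interval -1.11 to -0.12) did not pass (adjusted p = 0.253), and without mutant array 1 it was -0.32 (adjusted p = 0.601). Cldn5 differed by 0.11 in distal mandible, -0.14 in proximal mandible and -0.13 in proximal maxilla.

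**Figure D3:**
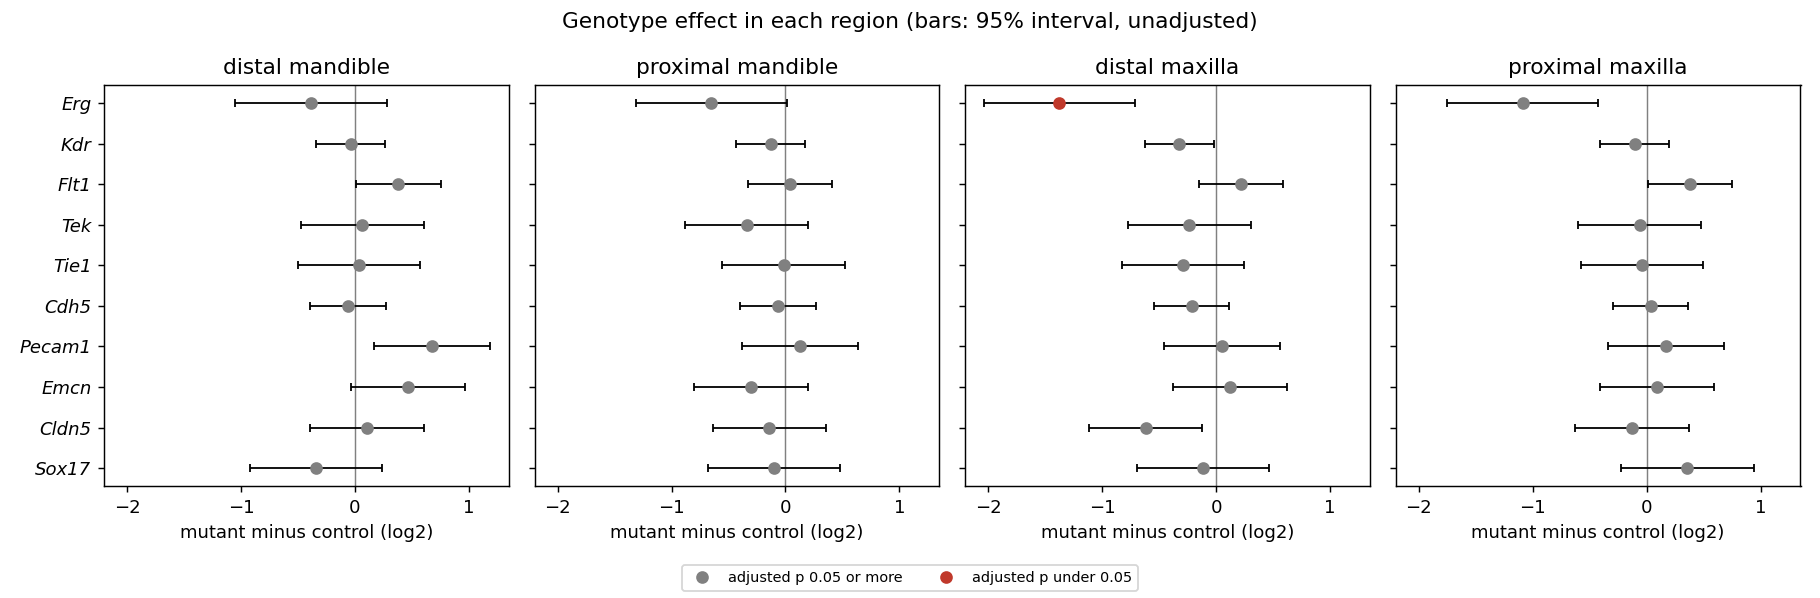
Mutant minus control difference (log2) of the 10 endothelial genes in each region; points are the fitted differences and bars their 95% intervals, unadjusted. Erg lies lowest in all 4 regions, at -0.39, -0.65, -1.38 and -1.09, and the other 9 genes lie between -0.62 and 0.68.

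As a group, the 10 genes had a median difference of 0.05 in distal mandible (6 above 0 and 4 below), -0.12 in proximal mandible (2 and 8), -0.23 in distal maxilla (3 and 7) and -0.00 in proximal maxilla (5 and 5). The medians over all genes were -0.03, 0.01, -0.03 and 0.02 in the same order of regions. The mean of the 10 genes in distal maxilla was 9.33 ± 0.42 in mutants and 9.61 ± 0.36 in controls (SD, n = 4 each). In distal mandible it was 9.51 ± 0.12 in mutants and 9.42 ± 0.24 in controls. The distal maxilla median and mean include mutant array 1, where the 10 genes deviated from their group means by -0.57 on average. On the other mutant arrays there this deviation was -0.03 to 0.41. The distal mandible values include control array 3.

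Set against the mean of the other 9 genes on the same array, Erg was lower on all mutant than on all control arrays in all 4 regions. Erg minus that mean averaged -0.44 ± 0.09 in mutant and 0.09 ± 0.24 in control distal mandible (SD, n = 4 each), and -0.32 ± 0.17 in mutant and 0.23 ± 0.26 in control proximal mandible. In the maxilla it averaged -0.71 ± 0.58 in mutant and 0.51 ± 0.38 in control tissue at the distal end, and -0.56 ± 0.21 in mutant and 0.60 ± 0.63 in control tissue at the proximal end. Mutant array 1 of distal maxilla read -1.55, against -0.60 to -0.31 on the other mutant arrays there. Of the 40 combinations of gene and region treated this way, 8 did not overlap between genotypes: 4 of Erg, all lower in mutants, and 2 of Pecam1, 1 of Flt1 and 1 of Emcn, all higher. That was 3 of the 10 genes in distal mandible, 2 in proximal mandible, 2 in distal maxilla and 1 in proximal maxilla. For genes other than Erg the subtracted mean includes Erg, so the fall of Erg raises them by construction. The higher combinations of Pecam1, Flt1 and Emcn all overlapped between genotypes in the genes' own values. With the mean of the 10 genes subtracted from each gene that is not listed, 7.93% of all genes did not overlap in distal mandible, 5.82% in proximal mandible, 3.99% in distal maxilla and 1.12% in proximal maxilla. The shares with all mutant arrays lower were 7.35%, 1.55%, 0.139% and 0.365% in the same order, and those with all higher were 0.576%, 4.27%, 3.85% and 0.759%. The mean subtracted here includes Erg, so the fall of Erg raises these genes as well, whereas Erg was set against the other 9 genes. These shares are therefore no like-for-like background for Erg. With 1425370_a_at in place of the tested probe set, Erg minus the others overlapped between genotypes in all regions but the proximal maxilla.

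**Figure D4:**
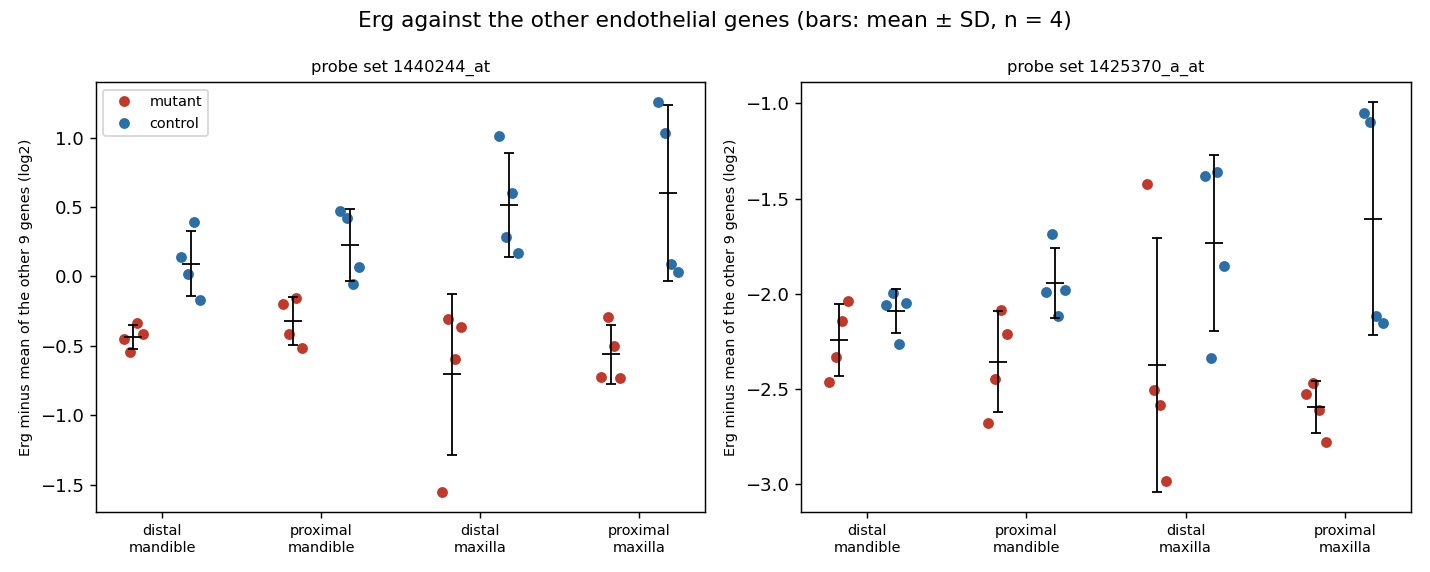
Erg minus the mean of the other 9 endothelial genes on each array (log2), for the tested probe set (left) and the second (right), with mutant arrays left of control arrays; points are arrays and bars are mean ± SD (n = 4). The tested probe set separates the genotypes in 4 regions, and the second separates them in proximal maxilla.

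Between the regions of control tissue 0 of the 10 genes were called in any of 4 comparisons (limma, 0 at unadjusted p under 0.05 in each, against 2.96% to 16.2% of all genes). Mandible minus maxilla ranged from -0.57 for Erg to 0.11 for Sox17 at the distal end, where 1.47% of all genes were called, and from -0.43 for Erg to 0.20 for Sox17 at the proximal end, where 5.4% were. Distal minus proximal ranged from -0.47 for Emcn to 0.17 for Cldn5 in the mandible, where 4.84% of all genes were called, and from -0.17 for Emcn to 0.16 for Flt1 in the maxilla, where 0% were. The distal mandible values of Emcn and Pecam1 include control array 3. In the 4 interactions of genotype with jaw or end, 0 of the 10 genes were called (limma), and 2, 0, 1 and 0 had an unadjusted p under 0.05, against 7.3%, 2.17%, 4.24% and 4.78% of all genes. The share of all genes called was 0.102% for jaw at the distal end, 0.0073% for jaw at the proximal end, 0.0219% for end in the mandible and 0.0584% for end in the maxilla.

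Within groups the endothelial genes varied together from array to array. After subtraction of group means, all 45 pairs correlated above 0 over 32 arrays, from 0.07 (Pecam1 with Sox17) to 0.87 (Tek with Cldn5), with a median of 0.59. These points share arrays, dissections and normalization, so the correlations are descriptions. Against the mean of the other 9 genes, Tek reached 0.94, Kdr 0.89, Cldn5 0.82 and Cdh5 0.79, while Erg reached 0.65, Flt1 0.51 and Pecam1 0.48. Tie1, Emcn and Sox17 lay between, at 0.77, 0.71 and 0.69. The median correlation of all genes with the mean of the 10 was 0.06, and 12.9% of genes exceeded 0.5.

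The mean deviation of the 10 genes was lowest on array 1 of mutant distal maxilla (-0.57) and highest on array 2 of control distal maxilla (0.47). The maxilla groups spread most, from -0.57 to 0.41 in mutant and -0.31 to 0.47 in control distal maxilla. In mutant distal mandible the arrays lay between -0.11 and 0.14.

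**Figure D5:**
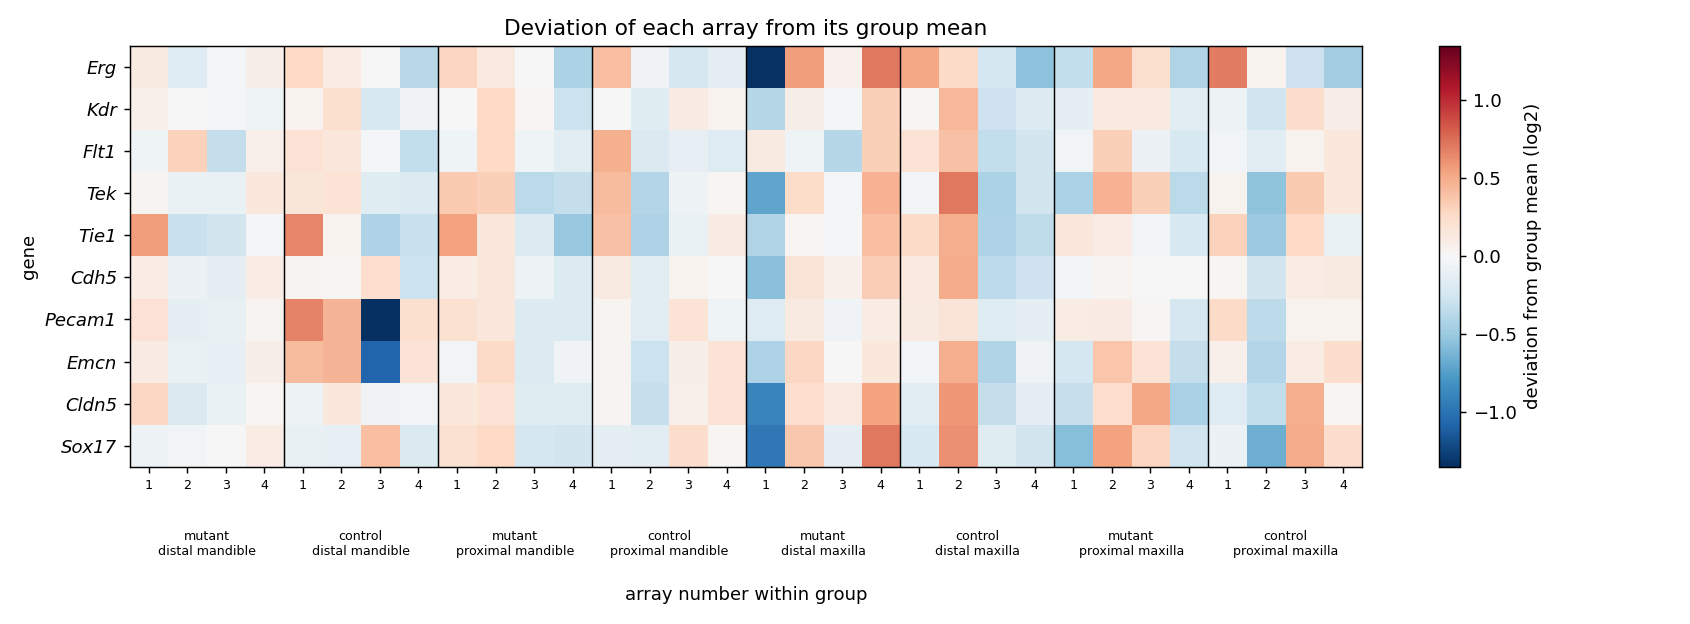
Deviation of each array from its group mean (log2, colour) for the 10 endothelial genes, with arrays 1 to 4 of each group side by side and mutant groups left of their controls. Columns tend to carry 1 colour from top to bottom, as in array 1 of mutant distal maxilla, with array 3 of control distal mandible low for Pecam1 and Emcn but high for Sox17.

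The genes that were not listed and followed the mean of the 10 most closely over 32 arrays were Dlk1 (0.91), Enpp5 (0.91), Uaca (0.90), Anxa3 (0.90), Qpct (0.90), Ptprb (0.90), She (0.90) and Fut8 (0.90). Ptprb encodes a phosphatase of endothelial cells that acts on TIE2. Other cell type lists also followed the endothelial mean. The median correlation was 0.80 for 11 macrophage and leukocyte genes, 0.54 for 9 skeletal muscle genes, 0.54 for 5 cartilage genes and 0.50 for 11 mural cell genes. It was 0.26 for 7 neuronal genes, -0.27 for 3 bone genes, -0.32 for 5 platelet and megakaryocyte genes, -0.45 for 8 epithelial genes and -0.64 for 8 facial mesenchyme genes.

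Of 104 other vascular genes in 7 lists, 96 were measured, and their median correlation with the endothelial mean was 0.57, with 54 above 0.5. Between genotypes 2 of the 96 fell in distal mandible (1.43% of all genes fell and 0.482% rose), 4 in proximal mandible (0.664% and 0.591%), 1 in distal maxilla, 0 in proximal maxilla (0.0073% and 0.0584%) and 2 on average (0.868% and 0.503%). None of the 96 rose in any of these. Their median difference in distal maxilla was -0.14, against -0.03 over all genes, both with mutant array 1 included.

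Among the 7 VEGF ligand and co-receptor genes, Nrp2, a neuropilin co-receptor of VEGF-C, fell in proximal mandible (-0.55, adjusted p = 0.0152). Vegfa, the main ligand of Kdr and Flt1, did not pass in any region (0.11 to 0.24). Among the 4 measured angiopoietin axis genes, Angpt1, the activating ligand of TIE2, fell in proximal mandible, at 8.86 ± 0.26 in mutants and 10.09 ± 0.80 in controls (SD, n = 4 each), a difference of -1.22 ± 0.26 (SE, adjusted p = 0.0137). Without control array 1 this was -0.83 (adjusted p = 0.066) and without mutant array 3 it was -1.12 (adjusted p = 0.069). In the other regions Angpt1 differed by -0.68, -0.48 and 0.10 in distal mandible, distal maxilla and proximal maxilla without passing. The call of Nrp2 was lost without the same arrays, control array 1 (adjusted p = 0.0906) and mutant array 3 (adjusted p = 0.069).

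Among 12 measured Notch and arterial genes, Jag1, a Notch ligand, fell in distal mandible (11.23 ± 0.15 in mutants and 11.85 ± 0.25 in controls, difference -0.61, adjusted p = 0.0179). Jag1 also fell in proximal mandible (-0.71, adjusted p = 0.00633) and on average (-0.52 ± 0.09, SE, adjusted p = 0.0307). With the mean of its probe sets Jag1 did not pass in distal mandible (-0.30, adjusted p = 0.427), proximal mandible (-0.65, adjusted p = 0.076) or on average (-0.41, adjusted p = 0.0693). The distal mandible call was also lost without control array 1 (adjusted p = 0.0964), mutant array 2 (adjusted p = 0.0737) or mutant array 3 (adjusted p = 0.0613), and the average call held in 7 of 21 alternatives. Jag1 is also expressed outside vessels. Among 7 venous and lymphatic genes, Aplnr, the apelin receptor gene, fell in proximal mandible (-0.84, adjusted p = 0.0383). The call of Aplnr held in 12 of 23 alternatives and was lost without control array 1, 3 or 4 or mutant array 2, 3 or 4 (adjusted p = 0.0611 to 0.222).

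Among 8 endothelial TGF-beta and BMP genes, Bmper, a secreted BMP modulator, fell in distal mandible (8.24 ± 0.52 in mutants and 9.51 ± 0.30 in controls, difference -1.27, adjusted p = 0.00609). Eng, a TGF-beta co-receptor gene of endothelium, differed by -0.17 to 0.06 over the 4 regions, and the receptor gene Acvrl1 by 0.16 to 0.36. Neither passed. Among 20 measured transcription factor genes other than Erg and Sox17, Mef2c fell in distal maxilla (10.15 ± 0.41 in mutants and 11.26 ± 0.39 in controls, difference -1.11, adjusted p = 0.0348). This call was lost without control array 1 or 3 or mutant array 2 or 3 (adjusted p = 0.0842 to 0.162). The ETS genes closest in role to Erg were not called in distal maxilla, with Fli1 at 0.20 (adjusted p = 0.735), Ets1 at 0.04, Ets2 at -0.43 (adjusted p = 0.132) and Elk3 at -0.24. The related SOX gene Sox18 differed by -0.65 there (adjusted p = 0.175) and Sox7 by -0.13. Of 38 surface, adhesion and signalling genes, Arhgef15, a gene for an endothelial exchange factor that was singled out after its values were seen, fell on average (-0.41 ± 0.06, SE, adjusted p = 0.0252). The call of Arhgef15 held in 10 of 21 alternatives.

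In control tissue the same 96 genes gave 0 higher and 3 lower calls in distal mandible against distal maxilla, where 0.394% of all genes were higher and 1.08% lower. They gave 1 and 5 in proximal mandible against proximal maxilla (2.33% and 3.07% of all genes) and 6 and 5 in distal against proximal mandible (2.29% and 2.55%). Gata2, a gene for a transcription factor of endothelial, blood and neural cells, was lower in mandible than in maxilla by -3.33 at the distal and -3.09 at the proximal end (adjusted p = 2.27e-06 and 2.49e-06). Bmper was lower in distal than in proximal control mandible (-1.83, adjusted p = 8.79e-05). Hey2, an arterial Notch target gene, was higher in distal than in proximal control mandible (2.54, adjusted p = 0.0444). Many of these genes are also expressed outside vessels.

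Markers of other cell types were read beside the fall of Erg in distal maxilla. Of 11 macrophage and leukocyte genes, 1 rose there (Fcgr3, 1.02, adjusted p = 0.028) and 0 fell, with a mean of 9.10 (8.33 to 9.57) in mutants and 8.55 (8.18 to 9.02) in controls. Of 5 cartilage genes 0 were called, with a mean of 9.74 (9.34 to 10.56) in mutants and 10.38 (9.59 to 11.19) in controls. Of 11 mural cell genes 0 were called, with a mean of 9.37 (9.07 to 9.87) in mutants and 9.60 (9.03 to 10.26) in controls. Of 7 neuronal genes 0 were called and all were above 0, with a mean of 10.39 (9.89 to 11.14) in mutants and 9.40 (9.14 to 10.06) in controls. Of 3 bone genes 0 were called and all were below 0, with a mean of 9.46 (8.71 to 10.46) in mutants and 10.29 (9.22 to 11.48) in controls. Of 9 skeletal muscle genes 0 were called, with a mean of 7.77 (6.97 to 8.92) in mutants and 8.32 (6.59 to 10.001) in controls. Of 5 platelet and megakaryocyte genes 0 were called and all were below 0, with a mean of 7.60 (7.26 to 7.84) in mutants and 8.06 (7.79 to 8.22) in controls. The platelet and megakaryocyte mean was lower in mutants in the other regions too, by -0.63 in distal mandible, -0.45 in proximal mandible and -0.23 in proximal maxilla, and the arrays of the genotypes did not overlap in either mandible region. The bone mean likewise did not overlap in either mandible region (-0.73 distal and -1.28 proximal). The macrophage and leukocyte mean was higher on all mutant arrays in proximal mandible (0.60) and proximal maxilla (0.68). Of all single genes, 8.02% in distal and 5.5% in proximal mandible had all mutant arrays lower. All mutant arrays were higher for 6.33% in proximal mandible and 2.08% in proximal maxilla. No such share was taken for means of lists. The part of these lists in the differences of Erg was not tested.

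Beside Pecam1, which leukocytes and platelets carry too, the platelet gene Itga2b fell in distal mandible (-0.41, adjusted p = 0.00877). From the macrophage and leukocyte list, 2 genes fell in distal mandible (Pf4, also a platelet gene, -1.18, and Ptprc, -1.08). Another 2 rose in proximal mandible (C1qa, 1.10, and C1qc, 1.26).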

How the data were processed

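The deposited values are log2 expression, 1 per probe set and array, made by the authors with RMA (background correction, quantile normalization and summary over probes) per the submitters' processing notes; its version is not given in the sources used here. RMA draws all arrays to 1 distribution and compresses differences of dim probe sets. Of 45101 probe sets, 34945 had 1 gene symbol in the platform annotation, 932 had several, 9160 had none and 64 were controls. Probe sets above their array's percentile 40 on at least 4 arrays were kept (29356), and the single-symbol one with the highest mean stood for its gene (13705 genes). Symbols were checked through RefSeq (GRCm38.p6), which matched 34741 and changed 0.

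Comparisons used limma 3.58.1 in R 4.3.3, with 8 group means and 24 residual degrees of freedom. For the average genotype effect the fit used the mean of 4 regions for each genotype and number, 4 against 4 (6 residual degrees of freedom). P-values were adjusted over all genes within each of 13 comparisons by the Benjamini-Hochberg method, with a threshold of 0.05, and every adjusted p comes from limma. The fits were also run on simulated data with independent arrays. Those data held no batch, shared embryos or odd arrays, so that run cannot show how the fits behave with them. The number of arrays limits the precision.

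The 10 genes, the other lists and the tests were chosen with earlier results of these data known. From the lists of other vascular genes the text names every gene called between genotypes and some further genes closest in role to the 10. It also names Tgfbr1 and the 8 genes most like the mean of the 10. Of genes called only between regions of control tissue, Gata2 and Hey2 were picked for description. Hey1, Nr2f2, Smad7, Foxc1, Vcam1, Itga6, Palmd, Jam3, F11r and Ocln passed there too and are not described. For the average effect the deviations of equal-numbered arrays of the 2 genotypes correlated at 0.44, 0.20, 0.40 and 0.23, so numbers were taken to pair those averages, from the data and not from a label. The main fit of the averages did not use this pairing, which entered only as the replicate block among the alternatives. Alternatives covered the probe set rule, the filter, normalization, the block, number 1 as a batch, the arrays in the fit and leaving out arrays.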

Additional observations from a re-analysis of the deposited data

Results flagged for a closer look

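Of 80 groups of 4 arrays, 10 genes in 8 groups, 4 held an array far above its 3 fellows by Dixon's criterion, and 0 held one far below them. Chance gives about 1 in 20 groups such an array. Sox17 read 9.25 on array 3 of control distal mandible, against 8.66 to 8.75 on the other 3 arrays, and 9.37 on array 2 of control distal maxilla, against 8.50 to 8.58. Cldn5 read 9.995 on array 2 of control distal mandible, against 9.78 to 9.81. Flt1 read 9.41 on array 1 of control proximal mandible, against 8.73 to 8.81.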

How the results depend on the processing

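Erg kept its sign in distal maxilla under all 23 alternatives (-1.80 to -0.75) and passed the test in 12. Of the 10 genes, 1 was called there, and 0 were called when only the groups compared entered the fit (Erg adjusted p = 0.474). Under 3 alternatives chosen after seeing the data the count was also 0: without the 2 arrays that stand apart (Erg -0.93, adjusted p = 0.11), without the 2 control maxilla arrays of intermediate Xist (adjusted p = 0.0814) and with every probe set as its own feature (adjusted p = 0.0702). Leaving out replicates gave counts of 0 to 1 in distal maxilla and 0 to 1 on average. The average count was 2 with number 1 as a batch covariate (Erg, adjusted p = 0.0361, and Cldn5, -0.20, adjusted p = 0.0395). With the number as a replicate block the count stayed at 1 in distal maxilla (Erg adjusted p = 0.0229), at 0 on average, where pairing was taken to hold (Erg adjusted p = 0.0818), and at 0 elsewhere. The other counts of the 10 genes were 0 under every alternative. Counts over all genes moved more. In distal maxilla 108 genes were called, 315 with the block, 336 with number 1 as covariate and 2 with only the groups compared. On average 188 were called, 388 with the block and 1182 with the covariate. The cause of these shifts was not tested.

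With 4 arrays a group, the 95% intervals of the 9 genes other than Erg reached from -1.11 to 1.19 in the genotype comparisons. These ends belong to Cldn5 in distal maxilla and Pecam1 in distal mandible, so changes of about 2-fold were not excluded for them. The probe sets of Erg, Sox17, Flt1, Cdh5 and Jag1 differed in the size or sign of what they read, and their transcript positions were not used here. Array 1 of mutant distal maxilla and array 3 of control distal mandible move several values by more than 1.5 times.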
